A study of Homo sapiens with 4 samples.

Results

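Ribosome biogenesis factors are the nucleolar proteins that transcribe, fold, modify and cut ribosomal RNA and assemble it with ribosomal proteins. A list of 47 such genes was followed by symbol in RNA-seq of DU145, an established human prostate cancer cell line. Each of the 47 symbols matched 1 of the 60614 gene IDs, and all 47 were among the 17539 genes tested. By role, 19 serve the small (40S) subunit, 14 the large (60S) subunit, 4 RNA polymerase I, 5 the snoRNPs (RNA-protein particles that guide modification of ribosomal RNA), and 5 are nucleolar proteins with several functions.

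The study compared DU145 cells of genotype SPOP-F133V (2 libraries, replicates 1 and 2) with wild-type cells (2 libraries, replicates 1 and 2), all grown alike without a stated treatment. SPOP brings target proteins to the CUL3 ubiquitin ligase, and F133V changes the domain that binds them. Levels are given as CPM, counts scaled to library size with TMM factors between libraries. SPOP itself stood at 1171 and 1151 CPM in F133V and at 843.5 and 906 CPM in wild-type libraries, higher in both F133V libraries. The wild-type levels were above those of the keratin KRT8 in the same libraries (755.1 and 739.1 CPM). The labels do not say whether the cells of either genotype are 1 clone, a pool or an overexpressing line. They also do not say whether replicates were separate cultures. The p-values therefore measure only the spread between these libraries, which may be technical. The libraries held between 35173245 and 39642063 reads assigned to genes. Each member but NOP2 had at least 326 reads in each library, so counting error was small for them. The epithelial keratins KRT8 and KRT18 were abundant, KRT8 at 739.1 to 1003 CPM. The prostate luminal marker KLK3 had no reads in any of the 4 libraries.

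In a growing cell, RNA polymerase I copies the ribosomal DNA into a long precursor. The small-subunit processome, built from the UTP-A and UTP-B complexes and the U3 snoRNP, forms on the precursor and releases the small-subunit RNA, while other factors mature the large subunit. Many genes of this pathway are known targets of the transcription factor MYC, which with MAX binds the E-box letters CACGTG. Prostate cancers commonly have enlarged nucleoli.

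The letters CACGTG stood near the start of many members. RefSeq promoter windows on GRCh38.p14, 250 bases before to 50 after a gene's start, were found for 39 of the 47 members. Either strand reads the same for CACGTG, and 17 of the 39 members (43.6%) held it. The share was 8.78% of the 27305 gene symbols with a window and 12.1% of the 12085 tested symbols with one. The related letters CACGCG, which read CGCGTG on the other strand, stood in 10 of 39 members (25.6%), against 13.5% of all symbols and 22.1% of tested symbols, and 4 members held both. These matches are descriptions of letters and show no binding. Members with and without CACGTG gave 14 of 17 and 19 of 22 lower calls, with median log2 fold changes of -0.34 and -0.39. After the adjustment for base composition described below the medians were -0.42 and -0.30, the opposite order. The sites of the members described most fully below are shown with the 6 letters in capitals and 10 bases on either side, 5′ to 3′ on the gene's strand. UTP20 holds it at position -10 from the start, UTP18 at -89 and 5, WDR43 at 4, GNL3 at 7, DDX21 at -31, LYAR at -64 and FBL at 7, counting the first transcribed base as 1. In DDX21 the site belongs to 1 of 2 annotated starts.
UTP20 (chr12:101280085-101280110, plus strand): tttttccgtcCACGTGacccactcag
UTP18 (chr17:51260447-51260472, plus strand): gagtgctggtCACGTGgcaagaggct
UTP18 (chr17:51260540-51260565, plus strand): agcgaggttcCACGTGagcgcctgcg
WDR43 (chr2:28894660-28894685, plus strand): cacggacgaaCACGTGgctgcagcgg
GNL3 (chr3:52686028-52686053, plus strand): cttcagttcaCACGTGgcgccagcgg
DDX21 (chr10:68956606-68956631, plus strand): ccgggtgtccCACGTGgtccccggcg
LYAR (chr4:4290070-4290095, minus strand): gcggcgagtcCACGTGctccccgcgg
FBL (chr19:39846358-39846383, minus strand): cgctcttttcCACGTGcgaaagcccc

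The 250 bases before the start are shown for UTP20, the member with the largest fall, and for FBL, the member with the only rise without adjustment for base composition. Capitals mark CACGTG in UTP20, and in FBL the related letters CGCGTG.
UTP20 (chr12:101279855-101280104, plus strand): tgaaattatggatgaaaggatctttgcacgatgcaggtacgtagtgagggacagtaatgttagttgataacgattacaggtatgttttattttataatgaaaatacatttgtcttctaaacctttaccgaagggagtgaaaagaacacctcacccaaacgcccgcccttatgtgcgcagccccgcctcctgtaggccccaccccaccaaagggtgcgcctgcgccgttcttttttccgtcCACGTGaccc
FBL (chr19:39846380-39846629, minus strand): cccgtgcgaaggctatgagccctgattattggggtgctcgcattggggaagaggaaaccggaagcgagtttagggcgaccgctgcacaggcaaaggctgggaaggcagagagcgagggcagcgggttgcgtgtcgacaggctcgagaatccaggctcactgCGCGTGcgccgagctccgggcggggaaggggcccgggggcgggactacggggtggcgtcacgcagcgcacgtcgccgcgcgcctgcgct

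The mRNAs of ribosome biogenesis factors were lower in F133V cells. Of the 47 members 40 fell, 1 rose and 6 did not pass (edgeR quasi-likelihood test, Benjamini-Hochberg adjusted p under 0.05 over all tested genes). Of all tested genes 54.8% were called, 27.6% as lower and 27.2% as higher. The members' median log2 fold change was -0.37, beside 0.02 for all tested genes, and ranged from -1.19 in UTP20 to 0.21 in FBL. Both F133V levels lay below both wild-type levels in 42 members, which was true of 37.8% of all tested genes. Only UTP20 and NOP58 fell at least 2-fold. Summed over the members, the level was 4835 and 4683 CPM in the F133V libraries (replicates 1 and 2) against 6469 and 6342 CPM in the wild-type ones. Cytosolic ribosomal protein genes, 79 coding genes selected by symbol after the data were seen, summed to 68640 and 69040 CPM in F133V and to 54140 and 52320 CPM in wild-type libraries. Fewer calls were made without a wild-type library, with 32 members lower without replicate 1 and 29 without replicate 2, and 0 higher in either case. Lower calls among all tested genes dropped as well, to 19.7% and 19.5%.

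**Figure D1:**
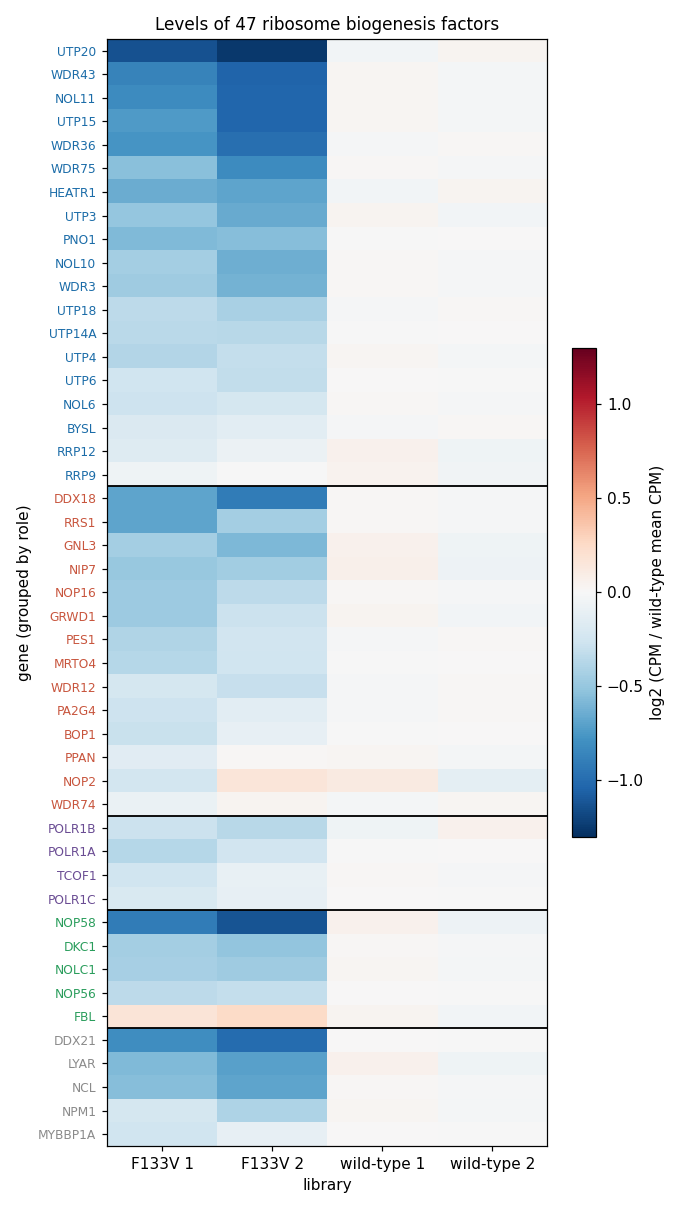
Level of each of the 47 factors (rows, grouped by role and coloured by it) in the 4 libraries (columns), as log2 of CPM over the wild-type mean CPM; blue is below and red above the wild-type mean. Both F133V values lie below both wild-type values for 42 members, furthest for UTP20 (46.98 against 107.2 CPM), and above them for FBL.

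The size of these falls followed the base composition of the transcripts. Across the 47 members the log2 fold change rose with the GC content of the longest transcript (Spearman rho 0.73, Pearson r 0.71), as it did across 11766 expressed genes (rho 0.73). Points in both sets share the same 4 libraries, so these are descriptions. The 2 F133V libraries differed from each other along the same axis, replicate 2 over replicate 1 (rho 0.87 across the members), while the wild-type replicates gave rho -0.06. In the bin of expressed genes of lowest GC content (30.2% to 38.5%) the median log2 fold change was -0.68, and in the highest (61.4% to 74.5%) it was 0.29. Of the 47 members, 45 lay below the median of the expressed genes in their own GC bin. The other two were WDR12, 0.25 above its bin, and FBL, 0.089 above its bin.

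A second fit therefore took each library's trend on GC content and transcript length as an offset. This GC-adjusted fit also called 40 members lower and 1 higher, with a median of -0.35, beside 24.6% lower and 27.6% higher among all tested genes. The equal counts hide an exchange of genes. Members called lower in both fits numbered 36, beside 2590 of the 17299 genes tested in both. UTP6, WDR3 and WDR75 were called lower only without the adjustment, and WDR12 changed from lower to higher. RRP9, RRP12, WDR74 and PPAN were called lower only with it, FBL lost its call, and NOP2 and POLR1C had none in either fit. Such an offset also removes any genotype difference that itself follows GC content, so both values are given for each member.

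**Figure D2:**
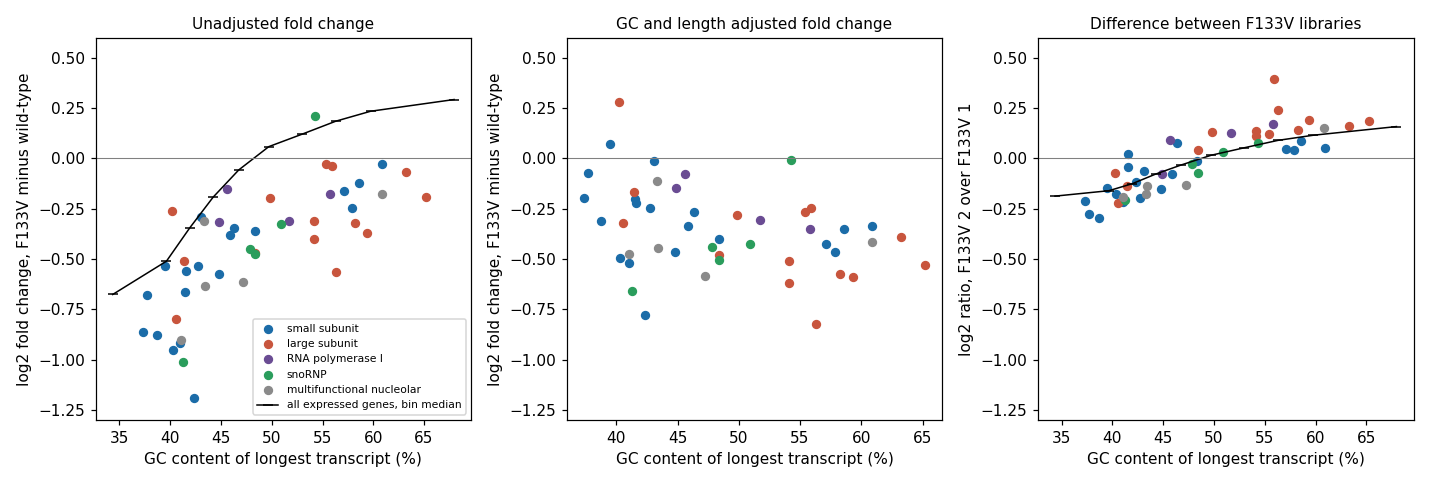
Each point is 1 of the 47 members, coloured by role, against the GC content of its longest transcript (%); the y axes are the log2 fold change of F133V over wild-type without adjustment (left) and with it (middle), and the log2 ratio of the 2 F133V libraries (right). Black lines join medians of all expressed genes in 10 GC bins; 45 of 47 members lie below their bin's median on the left.

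Small-subunit factors included UTP20, the member with the largest fall before adjustment. Of 19 members 17 fell, 0 rose and 2 did not pass, with a median log2 fold change of -0.53. After GC adjustment 16 were lower, 0 higher and 3 did not pass, with a median of -0.34. The group had transcripts of low GC content, with a median of 42.7%.

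UTP20 (chromosome 12, 101280109 to 101386616), a large processome protein needed to cut out the small-subunit RNA, stood at 48.87 and 45.08 CPM in F133V libraries (replicates 1 and 2, in this order throughout) and at 104.8 and 109.6 CPM in wild-type libraries. The F133V levels were less than 0.5 times either wild-type level. It fell by a log2 fold change of -1.19 ± 0.069 (SE; adjusted p = 1.11e-10), and by -0.78 ± 0.042 after GC adjustment (adjusted p = 3.2e-18). WDR43 (chromosome 2, 28894643 to 28948222), of the UTP-A complex that first binds the precursor, stood at 75.11 and 66.48 CPM in F133V and at 139.1 and 134.9 CPM in wild-type libraries. The groups lay far apart, and WDR43 fell by -0.95 ± 0.069 (adjusted p = 1.12e-09; GC-adjusted -0.50 ± 0.039). NOL11 (chromosome 17, 67717833 to 67744531), another UTP-A protein, stood at 66.47 and 57.27 CPM in F133V and at 118.9 and 115.2 CPM in wild-type libraries. It fell by -0.92 ± 0.072 (adjusted p = 2.81e-09; GC-adjusted -0.52 ± 0.041). UTP18, of UTP-B, had the most reads per length of the group, 33.4 CPM per kilobase of its longest transcript. Its levels were 56.42 and 53.5 CPM in F133V and 70.86 and 72.08 CPM in wild-type libraries, and it fell by -0.38 ± 0.068 (adjusted p = 8.16e-05; GC-adjusted -0.34 ± 0.043).

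Among small-subunit factors, the UTP-A and UTP-B complexes were followed separately, with no test between them. All 6 UTP-A members (UTP4, UTP15, WDR43, WDR75, HEATR1 and NOL11) fell, with a median of -0.78. After GC adjustment 5 of the 6 remained lower, and the median of all 6 was -0.29. WDR75, of 37.7% GC, went from -0.68 to -0.07 and lost its call (adjusted p = 0.176). The 4 UTP-B genes on the list of members (UTP6, UTP18, WDR3 and WDR36) fell, with a median of -0.46, which was -0.10 after adjustment. With the adjustment UTP18 and WDR36 (-0.86, then -0.19) remained lower. UTP6 moved from -0.29 to -0.01 (adjusted p = 0.808) and WDR3 from -0.53 to 0.07 (adjusted p = 0.135). The UTP-B genes TBL3 and PWP2, measured among the other pathway genes, did not fall before adjustment. They were at 0.15 and 0.16, with both F133V levels above both wild-type levels, and did not pass (adjusted p = 0.0866 and 0.224). Such separation upward was found in 7040 of the 17539 tested genes. After adjustment TBL3 was at -0.075 and PWP2 at -0.081, and neither passed (adjusted p = 0.144 and 0.499). WDR3 and WDR75 depended on the transcripts used for GC content. With the median over GENCODE basic transcripts, an alternative added after the data were seen, WDR3 gave -0.17 and WDR75 -0.31, both called lower (adjusted p = 3.67e-04 and 2.9e-07).

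Among the remaining small-subunit factors, UTP3 (-0.57), PNO1 (-0.56), an RNA-binding factor kept until late 40S maturation, NOL10 (-0.53) and UTP14A (-0.36), a helicase cofactor, fell. They remained lower after adjustment, at -0.47, -0.22, -0.25 and -0.40. The GC-rich members NOL6, BYSL, RRP12 and RRP9 had lower values with the adjustment than without it, as UTP14A did. NOL6, of UTP-C, went from -0.25 to -0.46 and BYSL, a 40S assembly factor, from -0.16 to -0.43. RRP12, a 40S export factor, went from -0.12 (adjusted p = 0.165) to -0.35 (adjusted p = 6.08e-08), and RRP9, the protein specific to the U3 snoRNP, from -0.03 (adjusted p = 0.781) to -0.34 (adjusted p = 6.26e-06). Before adjustment, RRP9 levels overlapped between genotypes, at 24.14 and 25.02 CPM in F133V and 25.9 and 24.21 CPM in wild-type libraries. The unadjusted call of BYSL (adjusted p = 0.0488) was also lost with no filter on low counts (0.0812), with DESeq2 (0.0677) and with upper-quartile scaling (0.53). Without wild-type replicate 1 or 2, NOL6 (-0.24 and -0.27), BYSL (-0.19 and -0.15) and UTP6 (-0.29 and -0.30) lost their unadjusted calls. Their log2 fold changes, given in brackets, moved little from those with all 4 libraries.

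Most large-subunit factors fell as well. Of 14 members 11 fell, 0 rose and 3 did not pass, with a median of -0.32, and after GC adjustment 12 were lower and 1 higher, with a median of -0.44. Their median GC content was 54.8%. The order of the small- and large-subunit medians (-0.53 and -0.32 before, -0.34 and -0.44 after) thus turned with the adjustment. Across the 47 members the adjusted fold changes still followed GC content, now inversely (Spearman rho -0.35, Pearson r -0.35). No test of the difference between roles was made, since genes are not replicates. Without wild-type replicate 2 the number of large-subunit members called lower dropped from 11 to 7.

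DDX18 (chromosome 2, 117814650 to 117832379), an RNA helicase of early 60S assembly, stood at 75.06 and 64.33 CPM in F133V and at 122.1 and 119.9 CPM in wild-type libraries. It fell by -0.80 ± 0.072 (adjusted p = 1.54e-08; GC-adjusted -0.32 ± 0.040). RRS1 (chromosome 8, 66429028 to 66430733), which helps place the 5S ribonucleoprotein, stood at 30.98 and 36.58 CPM in F133V and at 50.51 and 49.21 CPM in wild-type libraries. Both F133V values were well below wild-type, and RRS1 fell by -0.56 ± 0.080 (adjusted p = 5.79e-06). With GC adjustment its fall was -0.82 ± 0.050, the largest of the 47 members in that fit. GNL3, the nucleolar GTPase nucleostemin, stood at 99.17 and 90.17 CPM in F133V and at 139.7 and 129.8 CPM in wild-type libraries, and fell by -0.51 ± 0.067 (adjusted p = 2.05e-06; GC-adjusted -0.16 ± 0.038). The adjusted call of GNL3 was lost without wild-type replicate 1 (-0.11, adjusted p = 0.102). PA2G4, a pre-60S and ERBB3-binding protein, had the most reads per length of the group, 109 CPM per kilobase. Its levels were 249.5 and 273.2 CPM in F133V and 297.4 and 302.2 CPM in wild-type libraries, and it fell by -0.20 ± 0.060 (adjusted p = 0.00814; GC-adjusted -0.28 ± 0.035). PA2G4 did not pass in the unadjusted fit once wild-type replicate 1 or 2 was removed, though its fold change moved little (-0.21 and -0.19).

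The PeBoW complex, which PES1, BOP1 and WDR12 form and which matures the large-subunit RNAs, split with the adjustment. Without it all 3 fell, PES1 by -0.32, BOP1 by -0.19 and WDR12 by -0.26. With it PES1 was at -0.58 ± 0.040 and BOP1 at -0.53 ± 0.038, while WDR12 was at 0.28 ± 0.046 and called higher (adjusted p = 2.16e-06). WDR12 stood at 48.22 and 45.79 CPM in F133V and 55.71 and 57.06 CPM in wild-type libraries, lower in both. Its transcript GC content, 40.2%, is far below that of PES1 (58.2%) and BOP1 (65.2%). BOP1 and WDR12 lost their unadjusted calls without wild-type replicate 1 or 2. Their log2 fold changes moved little, to -0.20 and -0.19 for BOP1 and to -0.28 and -0.25 for WDR12.

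NOP16 (-0.40), GRWD1 (-0.37), a chaperone of a ribosomal protein, MRTO4 (-0.31), a placeholder for the ribosomal stalk protein, and NIP7 (-0.47) also fell. After GC adjustment they were at -0.62, -0.59, -0.51 and -0.48. MRTO4 missed the threshold without wild-type replicate 2 in the unadjusted fit (adjusted p = 0.0525). WDR74 (-0.03, adjusted p = 0.767) and PPAN (-0.07, adjusted p = 0.584) passed only with adjustment, at -0.26 and -0.39. In GENCODE release 29, 59.8% of the exon bases of PPAN are shared with other genes on its strand, chiefly the readthrough gene PPAN-P2RY11, and for NOP2, a ribosomal RNA methyltransferase, the share is 54.4%. NOP2 had only 19 and 24 reads in F133V and 26 and 20 in wild-type libraries. HTSeq kept reads over more than 1 gene apart from the gene totals, so the levels of NOP2 and PPAN are uncertain. At these counts NOP2 had a log2 fold change of -0.04 with an SE of 0.30 and did not pass (adjusted p = 0.925).

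The RNA polymerase I genes had the smallest median fall of the 5 roles before adjustment. Of 4 members 3 fell, 0 rose and POLR1C did not pass, with a median of -0.24, and the counts were the same after adjustment, with a median of -0.23. Without wild-type replicate 2, 0 of the 4 were called in the unadjusted fit. POLR1A (chromosome 2, 86020216 to 86106155), the largest catalytic subunit, stood at 56.39 and 61.55 CPM in F133V and at 72.88 and 73.45 CPM in wild-type libraries, and fell by -0.31 ± 0.069 (adjusted p = 7.07e-04; GC-adjusted -0.31 ± 0.043). POLR1B (chromosome 2, 112541915 to 112577150), the other large catalytic subunit, stood at 46.45 and 44.01 CPM in F133V and at 54.28 and 58.51 CPM in wild-type libraries, and fell by -0.32 ± 0.072 (adjusted p = 8.59e-04; GC-adjusted -0.15 ± 0.046). Without wild-type replicate 2, POLR1A gave -0.31 (adjusted p = 0.0537) and POLR1B -0.27 (0.114), and the GC-adjusted call of POLR1B was lost as well (0.251), as it was with basic transcripts (-0.07, 0.174). TCOF1, the nucleolar protein treacle that recruits the polymerase and had the most reads per length of the 4 (28.8 CPM per kilobase), stood at 133.2 and 150 CPM in F133V and at 161.4 and 158.5 CPM in wild-type libraries. It fell by -0.18 ± 0.065 (adjusted p = 0.0272; GC-adjusted -0.35 ± 0.036), a call lost in the unadjusted fit without wild-type replicate 1 or 2 (0.301 and 0.214). POLR1C, which RNA polymerase III shares, was at 24.82 and 26.41 CPM in F133V and 28.45 and 28.39 CPM in wild-type libraries. Its fold change of -0.15 ± 0.077 did not pass (adjusted p = 0.106; GC-adjusted -0.08, 0.263), but it passed without F133V replicate 1 or 2 (0.0494 and 0.00459) and, GC-adjusted, with basic transcripts (-0.21, 0.00176).

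**Figure D3:**
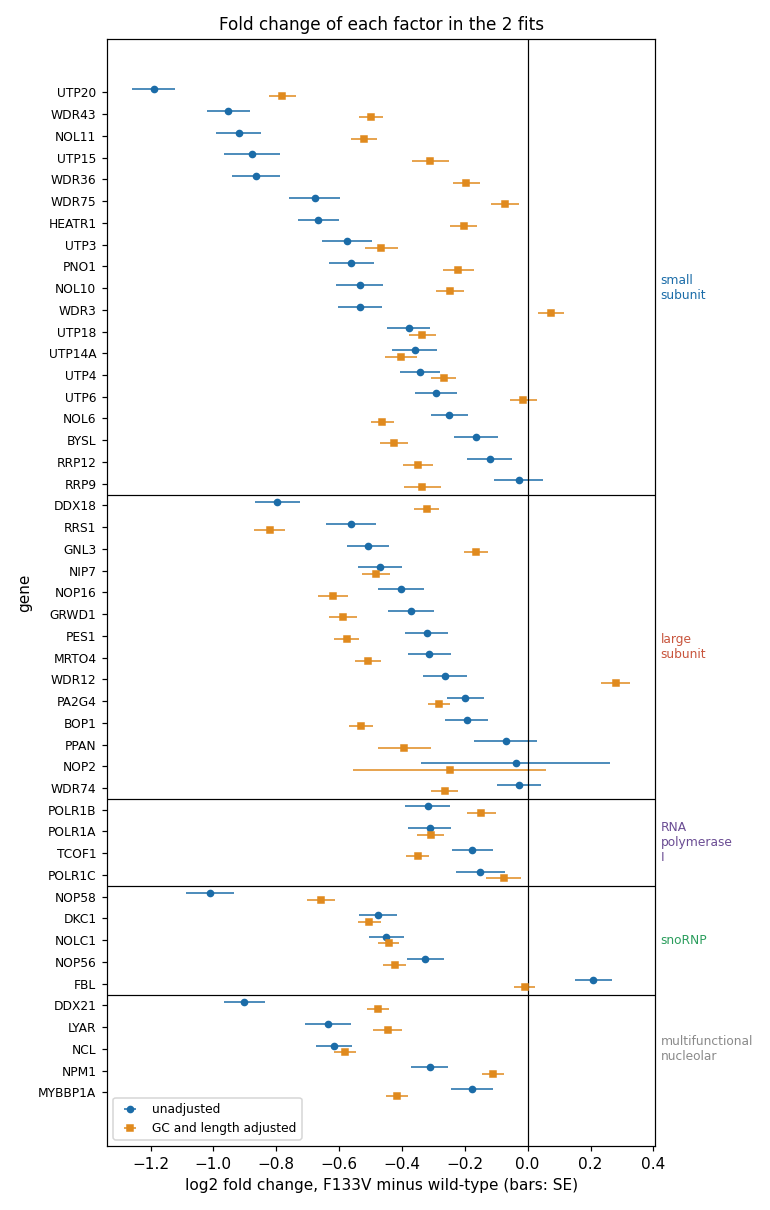
Log2 fold change of F133V over wild-type for each of the 47 factors, with SE bars, without adjustment (blue circles) and with the GC and length adjustment (orange squares), grouped by role. The adjusted values of low-GC small-subunit genes move toward 0 (UTP15 from -0.88 to -0.31), and those of GC-rich large-subunit genes move away from it (BOP1 from -0.19 to -0.53).

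Of the 5 snoRNP factors 4 fell and FBL rose, with a median of -0.45; after adjustment the same 4 were lower, 0 were higher, and the median was -0.44. NOP58 (chromosome 2, 202265716 to 202303666), a core protein of box C/D particles, stood at 46.94 and 40.61 CPM in F133V and at 91.83 and 84.52 CPM in wild-type libraries. It fell to 0.497 of the wild-type mean, by -1.01 ± 0.077 (adjusted p = 1.93e-09; GC-adjusted -0.66 ± 0.045). DKC1, the pseudouridine synthase of box H/ACA particles, stood at 105.7 and 100.7 CPM in F133V and at 144.8 and 142.3 CPM in wild-type libraries, and fell by -0.48 ± 0.062 (adjusted p = 1.71e-06; GC-adjusted -0.50 ± 0.037). NOLC1, a snoRNP chaperone, stood at 269.2 and 263.7 CPM in F133V and at 369.9 and 358.1 CPM in wild-type libraries, and fell by -0.45 ± 0.056 (adjusted p = 1.04e-06; GC-adjusted -0.44 ± 0.033). DKC1 and NOLC1, of middling GC content, differed little between the fits. NOP56, which pairs with NOP58, fell by -0.33 (GC-adjusted -0.42).

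FBL (chromosome 19, 39834458 to 39846414), fibrillarin, is the methyltransferase of the same box C/D particle as NOP56 and NOP58. It had the most reads per length among snoRNP factors, 165 CPM per kilobase, and stood at 241.7 and 254.4 CPM in F133V and at 219.5 and 209.6 CPM in wild-type libraries. Both F133V levels were above both wild-type levels, as in 7040 of the 17539 tested genes. FBL rose by 0.21 ± 0.059 (adjusted p = 0.0051), but was at -0.01 ± 0.034 after GC adjustment (adjusted p = 0.833). Without wild-type replicate 1 or 2 the unadjusted values were 0.24 and 0.17 and did not pass (adjusted p = 0.0976 and 0.264). In both fits FBL lay above NOP56 and NOP58. FBL was not alone in this among the core proteins of the box C/D particle. The core protein SNU13, measured among the other pathway genes, stood at 123.1 and 127.6 CPM in F133V and 114.1 and 109.5 CPM in wild-type libraries. SNU13 rose by 0.16 ± 0.062 (adjusted p = 0.0296) and was at 0.009 ± 0.037 after GC adjustment (adjusted p = 0.86). Differences between these genes were not tested.

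The 5 multifunctional nucleolar proteins fell in both fits, with medians of -0.62 and -0.45. DDX21 (chromosome 10, 68956128 to 68985073), a helicase that binds ribosomal DNA and snoRNAs, stood at 180.4 and 157.7 CPM in F133V and at 317.8 and 313.8 CPM in wild-type libraries. It fell by -0.90 ± 0.065 (adjusted p = 1.08e-09; GC-adjusted -0.48 ± 0.034). LYAR, a nucleolar zinc finger protein, stood at 43.24 and 39.33 CPM in F133V and at 66.63 and 61.68 CPM in wild-type libraries, and fell by -0.64 ± 0.074 (adjusted p = 4.19e-07; GC-adjusted -0.45 ± 0.046). NCL (chromosome 2, 231453531 to 231483641), nucleolin, stood at 616.8 and 563.5 CPM in F133V and at 916.2 and 891.5 CPM in wild-type libraries, and fell by -0.62 ± 0.057 (adjusted p = 2.21e-08; GC-adjusted -0.58 ± 0.035). For all 3 the groups were far apart and the call was kept in every alternative run.

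NPM1 (chromosome 5, 171387116 to 171411137), nucleophosmin, a histone and ribosome chaperone, had the most reads per length of the 47 members, 549 CPM per kilobase. It stood at 914.1 and 809.4 CPM in F133V and at 1087 and 1052 CPM in wild-type libraries, and fell by -0.31 ± 0.060 (adjusted p = 1.7e-04). Its GC-adjusted value was -0.11 ± 0.034 (adjusted p = 0.00635), was -0.09 without wild-type replicate 1 (0.12), and turned to 0.11, called higher, with GC content from basic transcripts (0.00504). Processed copies of NPM1 lie elsewhere in the genome, and multiply aligned reads, 13.6% to 16.6% per library, were left out of gene counts; their part in this result was not tested. MYBBP1A, a transcriptional corepressor that also binds RNA polymerase I, was at 105.4 and 117.2 CPM in F133V and 125.9 and 125.7 CPM in wild-type libraries, a fall of -0.18 (adjusted p = 0.0268; GC-adjusted -0.42). MYBBP1A did not pass in the unadjusted fit once wild-type replicate 1 or 2 was removed, though its fold change moved little (-0.18 in both cases).

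Other genes of the pathway, 139 in 6 lists, were measured beside the members; 138 were tested. Of these 76 fell, 11 rose and 51 did not pass, with a median of -0.21, and after adjustment 90 were lower and 16 higher with a median of -0.20. Among all tested genes 27.6% were called lower and 27.2% higher, and 24.6% and 27.6% after adjustment. No list was tested against these shares. Of the 138 genes 56 were lower and 2 higher in both fits, beside 2590 and 3047 of the 17299 genes tested in both. The genes DIMT1, TEX10, RSL24D1, TAF1D, EXOSC9, TENT4B and RPP30, named after their values were seen, went from called lower to called higher, RSL24D1 from -0.25 to 0.37 and TAF1D from -0.44 to 0.21. TSR3, NHP2 and RUVBL2 went from higher to lower. In the unadjusted fit fewer genes were called higher without either wild-type replicate, and more without F133V replicate 1. The share of all tested genes called higher in those fits was not computed, so nothing about these genes is drawn from them. Of 37 tested small-subunit factors 22 fell and 2 rose, and after adjustment 27 were lower and 1 higher. LTV1, a 40S export adaptor, fell most (-1.10 ± 0.094, GC-adjusted -0.79), and TSR3 rose most (0.24 ± 0.077) but was called lower after adjustment (-0.16). Of 45 large-subunit factors 29 fell and 2 rose, and after adjustment 37 were lower and 3 higher. RRP15 fell most (-1.04 ± 0.096, GC-adjusted -0.29), and NOP53, a 60S assembly factor, rose in both fits (0.71 ± 0.064, then 0.46 ± 0.038), from 90.12 and 86.01 CPM in wild-type to 138.9 and 148.8 CPM in F133V libraries.

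Of 17 other genes of the polymerase I machinery, 8 fell and 1 rose, with a median of -0.10. After adjustment 10 were lower and 4 higher, with a median of -0.18. The subunits POLR1F (-1.15 ± 0.090, GC-adjusted -0.54) and POLR1H (0.24 ± 0.073, GC-adjusted 0.35) moved in opposite directions in both fits. Of 13 other snoRNP factors 5 fell and 4 rose, not far from the shares of all tested genes (27.6% and 27.2%). With the adjustment 6 were lower and 2 higher. ZNHIT6, a box C/D assembly factor, fell most (-0.87 ± 0.090, GC-adjusted -0.24), and PIH1D1 rose most (0.25 ± 0.069), which was lost after adjustment (-0.02, adjusted p = 0.673). The RNA exosome, which trims ribosomal RNA precursors, had 8 of 16 genes lower and 1 higher. After adjustment the exosome had 5 lower and 5 higher, not far from the shares of all tested genes (24.6% and 27.6%). Its nuclease DIS3 fell most (-0.90 ± 0.093, GC-adjusted -0.27), and EXOSC5 rose (0.26 ± 0.082) only without adjustment (-0.05 with it, adjusted p = 0.465). Of 10 RNase P and MRP proteins 4 fell and 1 rose, and after adjustment 5 were lower and 1 higher. RPP40 fell most (-0.63 ± 0.10, GC-adjusted -0.43), and RPP25 rose (0.32 ± 0.083) only without adjustment (0.04 with it, adjusted p = 0.597).

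**Figure D4:**
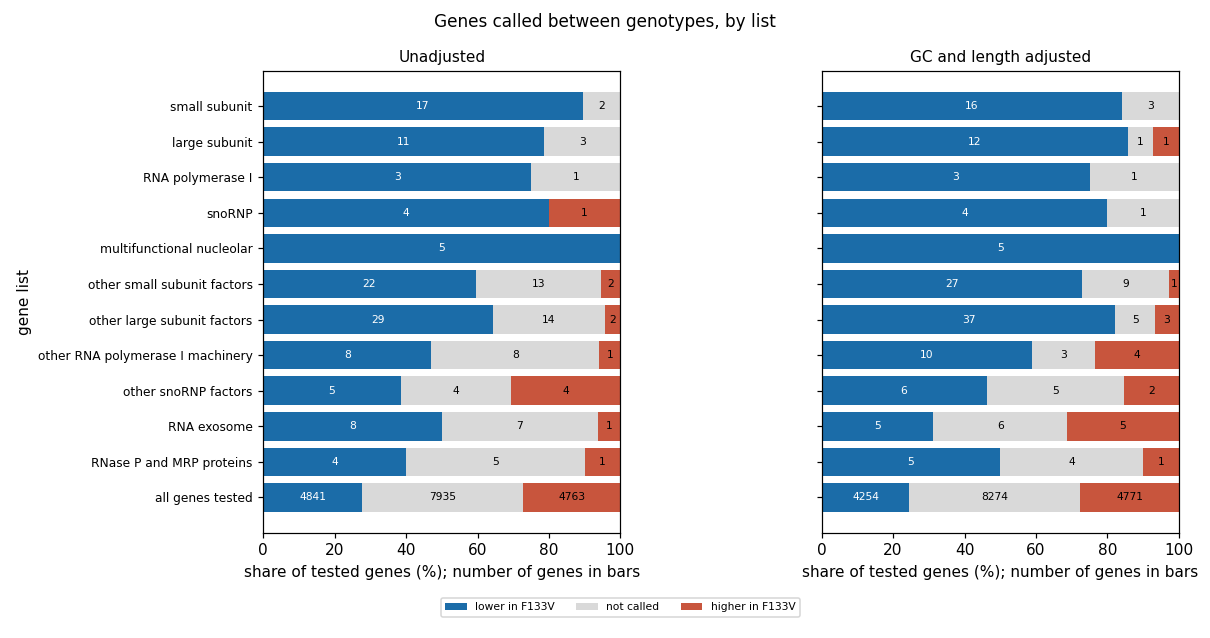
Share of tested genes called lower (blue), not called (grey) or called higher (red) in F133V cells for each role of the 47 members, each list of other pathway genes and all genes tested, without adjustment (left) and with it (right); numbers in the bars are genes. Among small-subunit members 17 of 19 are blue on the left and 16 on the right, beside 4841 of 17539 and 4254 of 17299 tested genes.

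Of the 40 members that fell, 25 were called lower in the fit without adjustment and in every one of 16 alternatives. They were 12 small-subunit factors (UTP3, UTP4, UTP14A, UTP15, UTP18, UTP20, WDR36, WDR43, HEATR1, NOL10, NOL11 and PNO1), 6 large-subunit factors (NOP16, RRS1, PES1, DDX18, GRWD1 and NIP7), 4 snoRNP factors (NOP56, NOP58, DKC1 and NOLC1) and 3 others (NCL, DDX21 and LYAR). None of the 4 RNA polymerase I genes was among them, POLR1A losing its call only without wild-type replicate 2 (-0.31). The share of all tested genes that kept a lower call in every alternative was not computed, so 25 has no background beside it. HEATR1 shares 23.2% of its exon bases with other genes, chiefly LGALS8 on the other strand, which itself was lower in F133V cells (log2 fold change -0.62). NIP7 and NOP16 share 20.15% and 19.95%, all with genes on the other strand, chiefly COG8 and ARL10. Neither COG8 (log2 fold change 0.15) nor ARL10 (-0.02) passed. Whether strand was used in counting is not stated.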

How the data were processed

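RNA-seq of 2 F133V and 2 wild-type DU145 libraries was used. What the authors deposited were unnormalized counts, 1 whole number per gene. Alignment and counting tools named per the submitters' processing notes are TopHat2 2.0.10 and HTSeq 0.6.0, with the hg38 build. The annotation release and the strand setting were not given in the sources used here. Of all reads in the tables, 6.12% to 6.53% lay over no gene and 3.50% to 3.73% over more than 1 gene; they entered neither library sizes nor tests.

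Counts were fitted in R 4.3.3 with edgeR 4.0.16 (filterByExpr, TMM, quasi-likelihood F-test, two-sided, Benjamini-Hochberg over all tested genes, threshold 0.05). Each SE is the log2 fold change over the square root of F. DESeq2 1.42.0 was an alternative. For the GC-adjusted fit, each library's log2 deviation was smoothed on GC content and log2 length of the longest GENCODE release 29 transcript (mgcv 1.9.3, basis dimension 8, fitted to genes whose mean log2 CPM exceeded 2), shifted to a median of 0 and used as an offset; 98.6% of tested genes had these values. Other alternatives were RLE and upper-quartile scaling, no filter, each library left out, and the replicate number as a block.

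The members, roles, pathway lists and the GC adjustment were chosen with earlier results of these data known. Values in every library are given for the 3 called members of largest change, each member called higher and the member with most reads per length in each role, and for others where a statement turns on them, chosen after their values were seen. From each pathway list the largest called fall and rise are named. The replicates of each genotype differed by more than sampling noise (chi-square over its degrees of freedom 8.30 for F133V and 1.70 for wild-type).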

Additional observations from a re-analysis of the deposited data

How the results depend on the processing

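The alternatives that kept all 4 libraries called between 33 and 41 members lower, beside 40. In those fits between 15.7% (no filter) and 27.9% (RLE factors) of all tested genes were called lower, beside 27.6%. The number called higher, 1, was 0 without either wild-type replicate and 2 with GC content from basic transcripts. The members' median log2 fold change, -0.37, was -0.39 with RLE factors and with DESeq2, -0.26 with upper-quartile scaling (which moved the median of all genes from 0.02 to 0.13 and the share of higher calls from 49.6% to 62.8%), between -0.40 and -0.37 without 1 library, -0.35 with the GC offset with or without the replicate block, between -0.42 and -0.36 with the GC offset and 1 library left out, and -0.32 with basic transcripts. The replicate number pairs nothing in the labels (correlation of same-numbered deviations -0.03). With the replicate block, 39 members were lower and 1 higher, BYSL losing its call. Upper-quartile scaling ended 7 members' calls (NOL6, WDR12, BOP1, MYBBP1A, PA2G4, BYSL and TCOF1). Lower calls among large-subunit factors ranged from 7 to 12 and among RNA polymerase I genes from 0 to 4 without 1 library. Higher calls among large-subunit factors were 0, and 1 in every fit with a GC offset. Among snoRNP factors they were 1, and 0 in every fit with a GC offset and without either wild-type replicate. Among multifunctional proteins they were 0, and 1 with basic transcripts. Among other pathway genes they were 11, 25 with upper-quartile scaling, 6 with DESeq2 and between 1 and 20 without 1 library.

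Among the members and the 12 pathway genes named as largest falls and rises, direction changed as follows, as log2 fold changes. With the GC offset alone and then with the replicate block added, WDR3 was at 0.0737 and 0.0737, WDR12 was at 0.28 and 0.28, FBL was at -0.00971 and -0.00941, TSR3 was at -0.16 and -0.16, PIH1D1 was at -0.0228 and -0.0235 and EXOSC5 was at -0.0539 and -0.0531. With the offset and without F133V replicate 1, F133V replicate 2, wild-type replicate 1 and wild-type replicate 2 in turn, WDR3 was at 0.0466, 0.0443, 0.10 and 0.0558, WDR12 was at 0.28, 0.23, 0.27 and 0.29 and FBL was at -0.0466, -0.0153, 0.0149 and -0.0326. In the same order TSR3 was at -0.19, -0.17, -0.13 and -0.20, PIH1D1 was at -0.036, -0.0513, -0.0514 and 0.00478 and EXOSC5 was at -0.0908, -0.0612, -0.0231 and -0.0797. RPP25 was at -0.0256 with the offset and without F133V replicate 1. With basic transcripts UTP6 was at 0.0848, NPM1 was at 0.11, WDR12 was at 0.35, FBL was at -0.048, TSR3 was at -0.13, PIH1D1 was at -0.0236 and EXOSC5 was at -0.0574. With upper-quartile scaling NOP2 (0.0716), RRP9 (0.0821), WDR74 (0.0844) and PPAN (0.0417) turned positive, none of them called. Without 1 library and without the offset, NOP2 ranged from -0.24 (without F133V replicate 2) to 0.12 (without F133V replicate 1), RRP9 ranged from -0.0809 (without wild-type replicate 2) to 0.0193 (without wild-type replicate 1) and WDR74 ranged from -0.0892 (without F133V replicate 2) to 0.00271 (without F133V replicate 1). The causes were not tested. In fits without 1 library a genotype with 1 sample is assumed to vary like the other genotype.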
